A study of Mus musculus with 12 samples.

Results

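The regions described here are the open-chromatin regions of mouse macrophages that lie in a pair of gene clusters for CC chemokines on chromosome 11. The members were all peaks of the 12 deposited ATAC-seq peak lists that fell within either of 2 fixed windows of the mm9 build, chr11:81820000-81980000 and chr11:83320000-83510000. The rule uses position alone, although the clusters were picked with earlier results of these data known. Peaks that overlapped by at least 1 bp, in any library, were chained into a region, and a library counts as calling a region when it has a peak there. This gave 66 of the 115231 regions of the series, 23 in the first window and 43 in the second. The first window is the one given for Ccl2, Ccl7, Ccl11, Ccl12 and Ccl8, and the second the one given for Ccl5, Ccl9, Ccl6, Ccl3 and Ccl4. Gene annotation of the mm9 build was not used here, so a region is named by its mm9 position and its distance from the window's start, and no region is assigned to a gene.

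ATAC-seq marks open chromatin by the insertion of adapters with the Tn5 transposase. The cells were macrophages grown for 9 days from bone marrow of female C57BL/6 mice, either wild type (WT) or with a knockout of lincRNA-EPS, a long noncoding RNA (KO), and every library of both genotypes came from cells cultured with 20% L929 supplement. Lipopolysaccharide (LPS, from the bacterial outer membrane) was given at 100 ng/ml for 0, 2 or 6 h, with 2 libraries in each combination of genotype and time. How the knockout allele was made is not stated in the labels. Nor do they tell whether replicate libraries stem from different mice or cultures, so any p-value covers the spread of these libraries alone, and that spread may be technical. Peak names inside the lists of all 4 libraries labelled 2 h give 1 h. That conflict could not be settled, and the time called 2 h may be 1 h.

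CC chemokines are small secreted proteins that attract leukocytes through G protein-coupled receptors, and macrophages that sense LPS through Toll-like receptor signalling are a known source of several of them. Ccl2, Ccl7 and Ccl12 recruit monocytes through the receptor Ccr2, Ccl11 (eotaxin) recruits eosinophils through Ccr3, and Ccl8 is a ligand of Ccr8 in the mouse. Ccl3 and Ccl4 are macrophage inflammatory proteins, Ccl5 (RANTES) attracts T cells, and Ccl6 and Ccl9 are ligands of Ccr1.

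The start sites of these genes are the places where factors of the LPS response are known to act, so the sequence in front of them is shown for the genes at which a searched motif was found. RefSeq promoter entries of GRCm38.p6, a later build than that of the peak lists, were matched by symbol for 5 of the 10 genes, which were Ccl12, Ccl8, Ccl9, Ccl6 and Ccl3. The others were Ccl2, Ccl7, Ccl11, Ccl5 and Ccl4. The 250 bases before the start are printed 5′ to 3′ on the gene's strand, and capitals mark matches to a motif on either strand. The motifs were the NF-kB consensus, GAAANNGAA (the core of the interferon-stimulated response element), TGANTCA (AP-1), GAGGAAG (the core of PU.1, the factor of the macrophage lineage) and TATAAA (the TATA box).
Ccl3, minus strand, chr11:83649379-83649628: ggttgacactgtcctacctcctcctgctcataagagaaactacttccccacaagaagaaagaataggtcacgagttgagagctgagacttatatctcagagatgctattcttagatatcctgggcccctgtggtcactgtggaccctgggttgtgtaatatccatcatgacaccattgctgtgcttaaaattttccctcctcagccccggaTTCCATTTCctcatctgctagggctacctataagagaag
Ccl9, minus strand, chr11:83578637-83578886: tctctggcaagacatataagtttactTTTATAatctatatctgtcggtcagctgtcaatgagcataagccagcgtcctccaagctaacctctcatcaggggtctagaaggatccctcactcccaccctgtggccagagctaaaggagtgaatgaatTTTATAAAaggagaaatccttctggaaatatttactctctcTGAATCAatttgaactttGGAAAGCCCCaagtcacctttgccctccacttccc
Ccl8, plus strand, chr11:82114935-82115184: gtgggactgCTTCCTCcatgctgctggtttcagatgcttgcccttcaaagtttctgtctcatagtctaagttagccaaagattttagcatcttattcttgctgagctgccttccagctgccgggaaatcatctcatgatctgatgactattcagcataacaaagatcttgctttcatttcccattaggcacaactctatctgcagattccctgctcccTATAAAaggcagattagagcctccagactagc
Ccl12, plus strand, chr11:82101595-82101844: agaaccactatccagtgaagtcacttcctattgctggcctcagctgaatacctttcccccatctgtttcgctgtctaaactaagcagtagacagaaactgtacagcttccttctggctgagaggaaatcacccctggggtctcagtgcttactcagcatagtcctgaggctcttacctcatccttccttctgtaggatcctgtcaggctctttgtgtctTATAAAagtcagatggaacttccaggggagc

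Positions are counted upstream from the start of each gene. Ccl3 held 1 match, to GAAANNGAA on the other strand, at bases 39 to 31. Ccl9 held the NF-kB consensus on the other strand at bases 35 to 26, TGANTCA at bases 53 to 47 and TATAAA on the gene's strand at bases 92 to 87, where it overlaps a match on the other strand at bases 94 to 89. Another TATAAA match of Ccl9 lay on the other strand at bases 224 to 219. Ccl8 held TATAAA at bases 32 to 27 and GAGGAAG on the other strand at bases 241 to 235, and Ccl12 held TATAAA at bases 31 to 26. The 250 bases of Ccl6 held none of these letters, which says nothing of the factors themselves. In the 32851 promoters of the same length, 7.25% held the NF-kB consensus, 7.13% GAAANNGAA, 6.75% TGANTCA, 10.6% GAGGAAG and 12.4% TATAAA. These positions are on another build than the peaks and were not joined to them.

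Depth differed between libraries. The lists held 54771 to 91610 peaks, and the lowest local background in a library, used here as its background coverage, ran from 1.43 reads in KO 0 h replicate 2 to 3.35 reads in KO 6 h replicate 1. Both KO libraries at 0 h (1.77 and 1.43 reads) lay below every other library, which had 2.17 reads or more. Where a library of low coverage has no call, the region may still be open at a level that was not callable.

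Most of the first window's regions were open in every library. In that window 14 of 23 regions were called in all 12 libraries, 3 in 11 libraries and 0 in 1 library only, which leaves 6 called in an intermediate number. In the second window 17 of 43 were called in all 12, 4 in 11, 4 in 1 and 18 in between. Together 47.0% of the members were called in every library, beside 37.2% of all regions and 39.2% of the 74 regions on chromosome 11 between the windows. The shares were 60.9% in the first window and 39.5% in the second. Of the 7 regions called in 11 libraries, 3 were missed in KO 0 h replicate 2, 2 in KO 0 h replicate 1, 1 in WT 2 h replicate 1 and 1 in WT 6 h replicate 2. Of the 4 regions called in a single library, 3 came from KO 6 h replicate 1, the library of highest background coverage, and 1 from KO 6 h replicate 2.

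**Figure D1:**
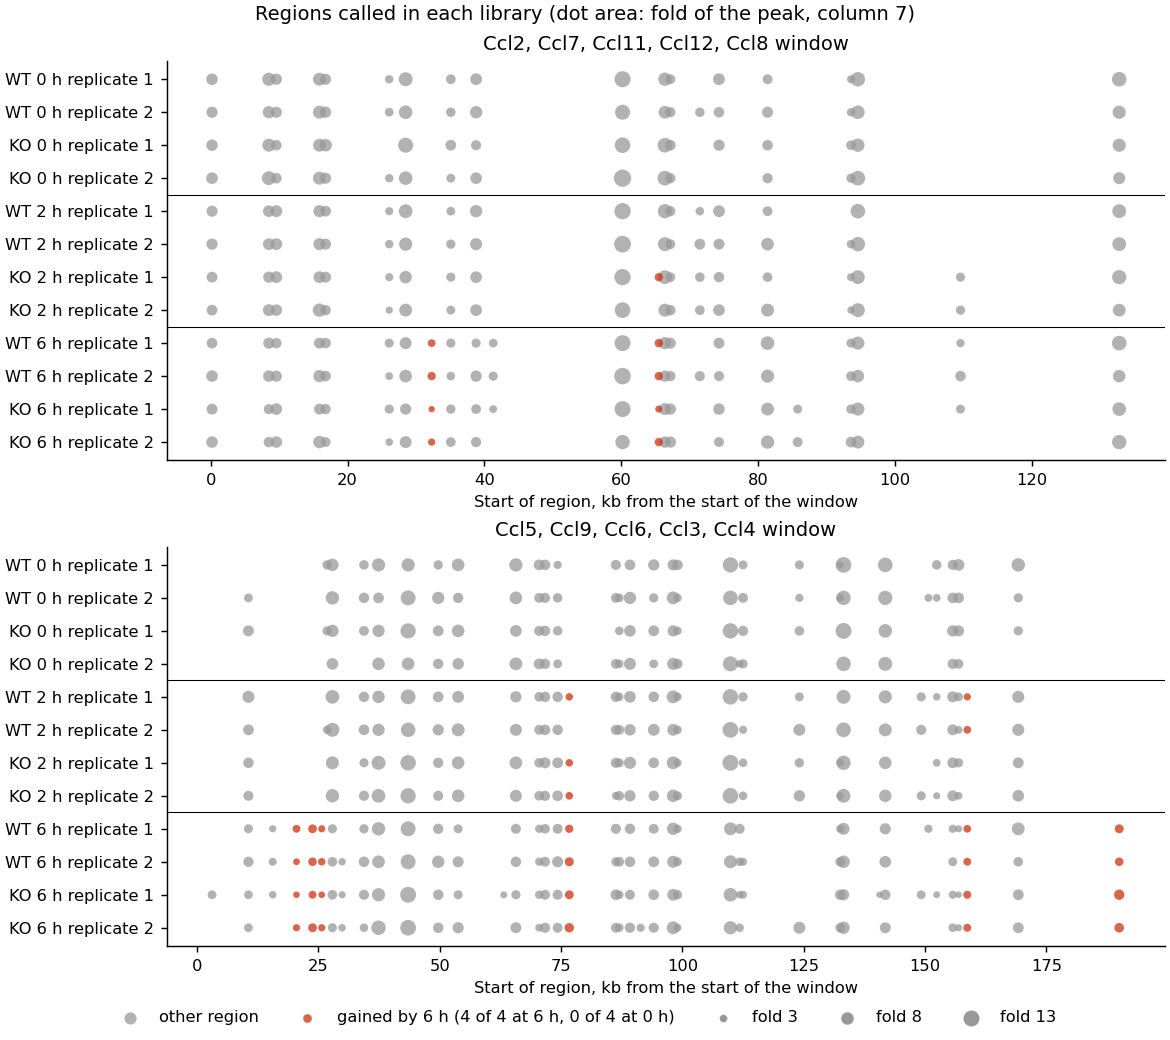
Calls of the 66 regions in each of the 12 libraries (vertical axis), by the region's start in kb from the start of the window (horizontal axis), with 23 regions of the first window in the upper panel and 43 of the second in the lower. A dot is a call, its area stands for the deposited fold, and red dots mark the 8 gained regions, of which 3 lie close together at 20.5 to 25.7 kb of the second window.

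More peaks were called in both windows at the later times. In the first window the WT libraries held 18 and 19 peaks at 0 h, then 17 and 19 after 2 h of LPS, then 21 and 22 after 6 h. The KO libraries held 16 and 16, then 20 and 20, then 22 and 20. The means over 4 libraries were 17.25 ± 1.5, 19.0 ± 1.41 and 21.25 ± 0.957 (SD), so the 6 h level was 1.23 times the 0 h level, and the libraries of those 2 times did not overlap. In the second window the WT libraries held 26 and 28 peaks at 0 h, then 30 and 29 after 2 h, then 34 and 34 after 6 h. The KO libraries held 25 and 22, then 29 and 30, then 40 and 34. The means were 25.25 ± 2.5, 29.5 ± 0.577 and 35.5 ± 3.0 (SD, n = 4), a ratio of 1.41 at 6 h, and neither later time overlapped 0 h. Over all lists the same ratio was 1.33 at 6 h and 1.16 at 2 h, so the second window stood slightly above the whole genome and the first slightly below it. At 0 h both KO libraries held fewer peaks than both WT libraries in either window, and these KO libraries were those of lowest background coverage.

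The length of chromatin under peaks grew with the counts. The first window had 9606 ± 889 bp covered at 0 h, 11270 ± 535 bp at 2 h and 11910 ± 768 bp at 6 h (mean ± SD, n = 4). In the second window the covered length was 11160 ± 872 bp at 0 h, 14080 ± 901 bp at 2 h and 17290 ± 2133 bp at 6 h, which is 1.26 and 1.55 times the level at 0 h. When every list was cut to the number of peaks in the shortest, the second window held 21.5, 22.5 and 22.25 peaks at 0, 2 and 6 h on average and the first 16.25, 16.5 and 16.5. The higher counts at later times were therefore not present among the strongest 54771 peaks of each list. The covered length of the second window was then still 10210 bp at 0 h and 13050 bp at 6 h, and that of the first 9344 and 10200 bp. Covered length was not computed over all peaks of a list, so these lengths have no genome-wide level beside them.

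**Figure D2:**
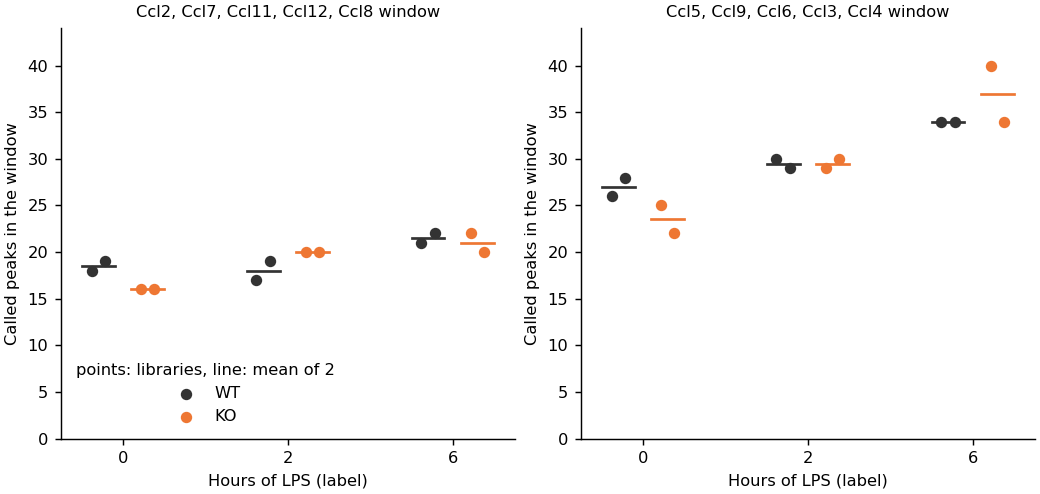
Number of called peaks in each window (vertical axis) by hours of LPS, with a point for each library, WT in black and KO in orange, and a line at the mean of the 2 libraries of a group. In the second window the counts lie between 22 and 28 at 0 h and between 34 and 40 at 6 h.

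Each deposited peak carries a fold, which is the summit coverage over the local background with a read added to each. It also carries a −log10 q, the strength of the call. The added read lowers the fold most where coverage is low, so folds of different libraries also depend on depth. Fold and −log10 q are the authors' own values of that peak, are printed to describe and rank peaks within a list, and were given no test. A −log10 q also rises with depth at the same fold, so differences in its size between times are not scaled for depth. Where a library had several peaks in a region, the one with the highest −log10 q was used. The strongest regions of each window, by the mean percentile of −log10 q among all peaks of a list, are described next, all of them called in all 12 libraries.

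The strongest region of the first window was chr11:81848542-81849547, 28.5 kb from the window's start, at percentile 92.3 ± 4.2 (SD over 12 libraries). At 0 h its −log10 q was 73.8 and 63.5 in WT and 77.5 and 47.4 in KO. At 2 h it was 88.5 and 72.0 in WT and 67.3 and 82.4 in KO, and at 6 h 46.0 and 58.7 in WT and 52.4 and 42.0 in KO. It ranked first among the window's 14 constantly called regions in 6 libraries, and held rank 2 to 5 at 6 h. Its fold was 9.93 and 9.38 in WT and 11.6 and 9.44 in KO at 0 h, 9.67 and 8.94 in WT and 7.98 and 8.51 in KO at 2 h, and 7.3 and 8.19 in WT and 6.37 and 7.28 in KO at 6 h. The 0 h and 6 h folds did not overlap.

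The next region, chr11:81880201-81881125 at 60.2 kb (percentile 91.6 ± 3.5), ranked first in 5 libraries and first or second in each library at 6 h. Its −log10 q was 60 and 47.0 in WT and 45.9 and 48.4 in KO at 0 h. At 2 h the values were 72.8 and 71.7 in WT and 69.4 and 61.3 in KO, and at 6 h 62.0 and 69.4 in WT and 87.0 and 46.1 in KO. At 6 h KO replicate 2 alone, at 46.1, lay within the range of 0 h. Its fold was 13.1 ± 1.59 at 0 h, 13.5 ± 0.757 at 2 h and 12.7 ± 1.5 at 6 h (SD, n = 4), which differed by less than the spread between libraries. It stood above the region at 28.5 kb in rank in all 4 libraries at 6 h, in KO 0 h replicate 2 and in KO 2 h replicate 1, and below it in the other libraries.

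At the edge of the first window, chr11:81820192-81821089 (0.2 kb, percentile 88.4 ± 2.3) ranked first in 1 library. Its fold was 6.8 and 6.43 in WT and 6.72 and 6.95 in KO at 0 h, 6.31 and 6.49 in WT and 6.04 and 5.98 in KO at 2 h, and 5.83 and 6.89 in WT and 6.15 and 6.79 in KO at 6 h. The −log10 q was 58.8, 52.6, 46.9 and 39.7 at 0 h, 66.5, 57.9, 54.9 and 58.9 at 2 h, and 39.5, 55.8, 58.4 and 48.2 at 6 h, in the order WT replicates 1 and 2 and KO replicates 1 and 2. Its values at 0 h and 6 h overlapped on both scales.

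Of the second window, chr11:83461765-83463559, at 141.8 kb, had the highest mean percentile (93.4 ± 4.1) and ranked first among the 17 constantly called regions in 5 libraries. Its fold was 10.9 and 10.4 in WT and 9.45 and 9.9 in KO at 0 h, 8.87 and 8.61 in WT and 8.14 and 7.98 in KO at 2 h, and 6.36 and 6.99 in WT and 5.61 and 6.17 in KO at 6 h. The 3 times formed separate ranges in falling order, with means of 10.2 ± 0.623, 8.4 ± 0.412 and 6.28 ± 0.571 (SD, n = 4). The −log10 q was 87.8, 82.0, 67.7 and 60 at 0 h, 90.0, 72.8, 74.6 and 78.6 at 2 h, and 51.3, 54.6, 52.1 and 44.4 at 6 h, in the order WT replicates 1 and 2 and KO replicates 1 and 2.

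Its neighbour chr11:83453235-83455091, at 133.2 kb (percentile 93.2 ± 4.0), ranked first in 2 libraries. The fold was 12.6 and 10.5 in WT and 13 and 10.9 in KO at 0 h, 9.94 and 11.1 in WT and 10.5 and 9.75 in KO at 2 h, and 7.27 and 8.01 in WT and 6.5 and 7.87 in KO at 6 h. All 6 h folds lay below all earlier ones, while 0 h and 2 h overlapped. Its −log10 q was 83.8, 63.9, 72.7 and 49.1 at 0 h, 84.9, 81.9, 81.7 and 85.9 at 2 h and 48.3, 51.6, 51.6 and 52.2 at 6 h, in the same library order.

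The third region, chr11:83429920-83430601 at 109.9 kb (percentile 92.0 ± 7.3), was the strongest call of the window in each library at 2 h, and in 5 of the 12 libraries. Its −log10 q was 80.0 and 64.0 in WT and 67.0 and 54.5 in KO at 0 h. At 2 h it reached 101 and 85.5 in WT and 96.5 and 96.8 in KO, above every 0 h value, and at 6 h it was 37.4 and 35.7 in WT and 59.2 and 39.0 in KO. These values are not scaled for depth. Background coverage was 2.35 and 2.51 reads in WT and 1.77 and 1.43 in KO at 0 h, and 3.03 and 2.32 in WT and 2.79 and 3.04 in KO at 2 h. The fold was 12 and 10.9 in WT and 12.1 and 11.6 in KO at 0 h, 12.2 and 12.6 in WT and 13 and 12.4 in KO at 2 h, and 8.35 and 8.64 in WT and 9.49 and 9.03 in KO at 6 h. The times formed separate ranges, lowest at 6 h. The summit itself was lower at 6 h relative to the library's background coverage: it was 48.1 ± 7.26 times that background at 0 h, 47.1 ± 2.5 times at 2 h and 27.5 ± 2.25 times at 6 h (SD, n = 4). On that scale the 2 h mean was not above that of 0 h.

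LPS was followed by calls at new places in both windows. By 6 h 8 of the 66 regions (12.1%) were gained, which means that all 4 libraries at 6 h called them and none of the 4 at 0 h did. Of all regions 5.54% were gained by this rule. The share was 8.7% in the first window (2 of 23), 14.0% in the second (6 of 43) and 6.76% between the windows (5 of 74). None of the 66 was lost by 6 h, where the share of all regions was 0.127%, but 2 were lost and 3 gained when every list had the same number of peaks. At 2 h none was gained (0.789% of all regions) and none lost (0.00434%). The gained regions were weak calls, and 7 of the 8 had a mean percentile below 40. Their median width was 581 bp against 686 bp for the members called everywhere. Over all regions these medians were 486 bp and 775 bp.

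Of the gained regions chr11:83343767-83344371, at 23.8 kb in the second window, was the strongest (percentile 60.5 ± 5.6). It was called in none of the 8 libraries at 0 and 2 h, and at 6 h its fold was 3.94 and 3.76 in WT and 3.16 and 3.96 in KO. The −log10 q there was 23.4 and 19.0 in WT and 19.4 and 22.4 in KO, from summits of 85, 73, 95 and 81 reads. The genotypes overlapped on both scales.

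Another pair of gained regions flanked it, and neither was called at 2 h. In chr11:83340525-83341202, at 20.5 kb (percentile 21.6 ± 15.3), the 6 h fold was 3.2 and 2.4 in WT and 2.19 and 2.71 in KO, and the −log10 q 12.1, 5.27, 6.0 and 8.18. In chr11:83345711-83346128, at 25.7 kb (percentile 22.1 ± 7.7), the fold was 2.62 and 2.91 in WT and 2.25 and 2.69 in KO, and the −log10 q 7.5, 9.15, 6.47 and 7.72. Both genotypes thus called all 3 of these neighbouring regions at 6 h, with overlapping values.

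Further along the second window, chr11:83396679-83397149 at 76.7 kb (percentile 26.4 ± 19.7) was already called in 3 of 4 libraries at 2 h. Its fold there was 2.94 in WT replicate 1 and 2.9 and 3.01 in KO. At 6 h it was 3.51 and 4.17 in WT and 4.05 and 4.57 in KO, above each value at 2 h, with −log10 q of 8.57, 12.3, 15.2 and 14.6. This region had the smallest p of the members for calls with LPS against 0 h, 0.0133 in the two-sided exact permutation test over 12 libraries with labels exchanged within genotype (7 of 8 libraries with LPS, 0 of 4 without). After Benjamini-Hochberg adjustment over all 115231 regions its p was 1.0, and no region of the genome passed 0.05 (smallest adjusted p 0.948). At an unadjusted p under 0.05 there was 1 of the 66 members, beside 2.08% of all regions.

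The last of the larger gained regions, chr11:83478709-83479866 at 158.7 kb (percentile 36.5 ± 19.9), was the widest at 1158 bp. At 2 h it was called in both WT libraries, with folds of 2.73 and 3.08, and in neither KO library. At 6 h the fold was 3.08 and 3.18 in WT and 3.34 and 3.31 in KO, and the −log10 q 12.2 and 13.4 in WT and 23.0 and 14.2 in KO. The mean fold at 6 h was 3.23 ± 0.121 (SD, n = 4), so the genotypes that were apart in calls at 2 h were both present at 6 h.

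At the end of the second window chr11:83509965-83510329 (190.0 kb, percentile 12.8 ± 13.4), which crosses the window's border, was called in none of the 8 earlier libraries. Its 6 h fold was 4.09 and 3.77 in WT and 5.52 and 4.73 in KO, from summits of only 14, 11, 23 and 14 reads, with −log10 q of 4.85, 3.6, 10.5 and 5.9. Both KO folds were above both WT folds here, a contrast of 2 libraries with 2 that cannot give a two-sided exact permutation p below 0.333.

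Of the pair of gained regions in the first window, chr11:81852331-81852887 at 32.3 kb (percentile 20.0 ± 18.8) was not called at 2 h. Its 6 h fold was 3.07 and 3.58 in WT and 2.05 and 2.72 in KO, and its −log10 q 8.07 and 12.8 in WT and 3.31 and 5.7 in KO. WT was above KO in every library on both scales, again with 2 libraries a side. The other, chr11:81885546-81886172 at 65.5 kb (percentile 21.4 ± 9.2), was called at 2 h in KO replicate 1 alone, with a fold of 3.57. At 6 h its fold was 3.63 and 3.61 in WT and 2.58 and 3.55 in KO, and its −log10 q 8.76, 8.22, 5.21 and 8.44.

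The set of gained regions changed with the calling limit. Of the 8, 6 were still gained at a −log10 q of at least 5 and 4 when coverage was thinned to that of KO 0 h replicate 2. With equal numbers of peaks per list 2 were kept, the regions at 23.8 kb and 158.7 kb of the second window. Under that last setting 3 of 53 member regions were gained and 2 lost, beside 3.33% and 1.35% of all regions. Of all regions 4.5% were gained after thinning, and of the members 5 of 63.

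Besides these, calls only at 6 h were made in further regions that missed the rule by a library. Counting all regions called at 6 h alone, in any number of libraries, there were 3 in the first window and 10 in the second, together 19.7% of the members beside 18.3% of all regions. Between the windows the share was higher than among the members, at 27.0% (20 of 74). In the first window chr11:81861321-81861919 at 41.3 kb had folds of 3.85 and 4.24 in WT and 3.12 in KO replicate 1 at 6 h. For the second window, chr11:83335608-83336032 at 15.6 kb had 2.63 and 3.3 in WT and 2.88 in KO replicate 1, and chr11:83349877-83350327 at 29.9 kb had 2.8 in WT replicate 2 and 2.6 and 2.88 in KO. Together with the 3 gained regions named above, these put 5 late regions between 15.6 and 29.9 kb of the second window. The same stretch held chr11:83346776-83347075 at 26.8 kb, which went the other way, with calls in 2 of 4 libraries at 0 h, 1 at 2 h and 0 at 6 h. It was named after its values were seen. A further region, chr11:83431757-83432373 at 111.8 kb, had calls from all 4 libraries at 6 h (5.18 and 3.79 in WT, 2.95 and 3.68 in KO) but also in KO 0 h replicate 2, at 2.99.

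Not all intermediate regions were late ones. In the first window chr11:81891528-81891973 was called in 1 of 4 libraries at 0 h, 4 of 4 at 2 h and 1 of 4 at 6 h. Its folds at 2 h were 3.74 and 6.05 in WT and 4.71 and 4.81 in KO. The second-window region chr11:83444094-83444554 was called in 3 of 4 libraries at 0 h, 4 of 4 at 2 h and 1 of 4 at 6 h, where KO replicate 2 alone had a fold of 7.4. Both were singled out after their values were seen.

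The local background around a summit, which the deposited fold and p together give back in reads, was divided by the library's background coverage to put the libraries on a like scale. This measure of the wider neighbourhood of a peak, and the summit coverage on the same scale, were chosen after the data were seen. They were read only at regions called in all 12 libraries, 31 members and 42811 of all regions. Neighbouring members can share much the same local background, so a count of members is not a count of independent places. In the first window its 6 h mean was 4.089 and 4.075 times the library background at the neighbours at 15.9 and 16.8 kb. It was 2.904 and 3.084 times at those at 66.4 and 67.2 kb. How far reads of nearby peaks entered the local background was not tested. At 12 of the 31 members (38.7%) the local background of all 4 libraries at 6 h was above that of all 4 at 0 h, as it was at 19.0% of all such regions. The share was 52.9% in the second window (9 of 17), 21.4% in the first (3 of 14) and 10.3% between the windows (3 of 29). It was below at 1 of the 31 (3.23%), beside 9.12% of all. At 2 h the local background of all 4 libraries was above all at 0 h at 9 of the 31 (29.0%), beside 4.23% of all regions and none of the 29 between the windows. Of these 4 were in the first window and 5 in the second, and it was below at none (1.33% of all regions). The median ratio of 6 h to 0 h was 1.18 in the second window, 1.12 in the first, 0.987 between the windows and 1.02 over all regions.

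Fewer members were apart in their summits, and the difference between the measures was not tested. Summit coverage over library background was higher in all 6 h libraries at 5 of the 31 members (16.1%, beside 9.61% of all regions) and lower in all of them at 3 (9.68%, beside 10.6%). All 2 h libraries were higher at 4 of the 31 (12.9%, beside 2.09% of all regions) and lower at none (2.36%). Its median ratio of 6 h to 0 h was 0.925 in the second window, 0.888 in the first and 0.953 over all regions. At the strongest regions with lower folds at 6 h the mean summit was lower than at 0 h in each. It was 52.3 and 39.1 times the library background at 0 h and 6 h at 28.5 kb of the first window. In the second window it was 48.2 and 39.6 at 133.2 kb, 59.5 and 45.2 at 141.8 kb, and 48.1 and 27.5 at 109.9 kb. Only at 109.9 kb did these summits not overlap. The mean local background was higher at 6 h at 28.5 kb (4.7 and 5.0, overlapping), 133.2 kb (3.63 and 4.98) and 141.8 kb (5.43 and 6.86). At 109.9 kb it was lower (3.64 and 2.74). Neither measure separated the 6 KO from the 6 WT libraries at any of the 31 regions, and few regions of the genome were so separated. The local background was higher in all KO libraries at 0.0537% of all regions and lower at 0.126%, and the summit higher at 0.028% and lower at 0.0981%. A share with all 6 h libraries above all at 0 h cannot fall when libraries are left out, so it is read only beside the share of all regions. For the local background without KO 0 h replicate 2 the share was 52.9% in the second window and 35.7% in the first, beside 22.5% of all. In WT alone it was 70.6% in the second window and 50.0% in the first (42.3% of all regions). In KO alone it was 64.7% and 50.0% (28.9% of all). Local background was below at 9.68% of the 31 members in WT (18.0% of all) and 12.9% in KO (31.8%). Summits were above at 22.6% of the 31 in WT, less than the 31.4% of all regions, and at 22.6% in KO (15.3% of all). They were below at 12.9% in WT (17.3% of all) and 45.2% in KO (46.7%).

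**Figure D3:**
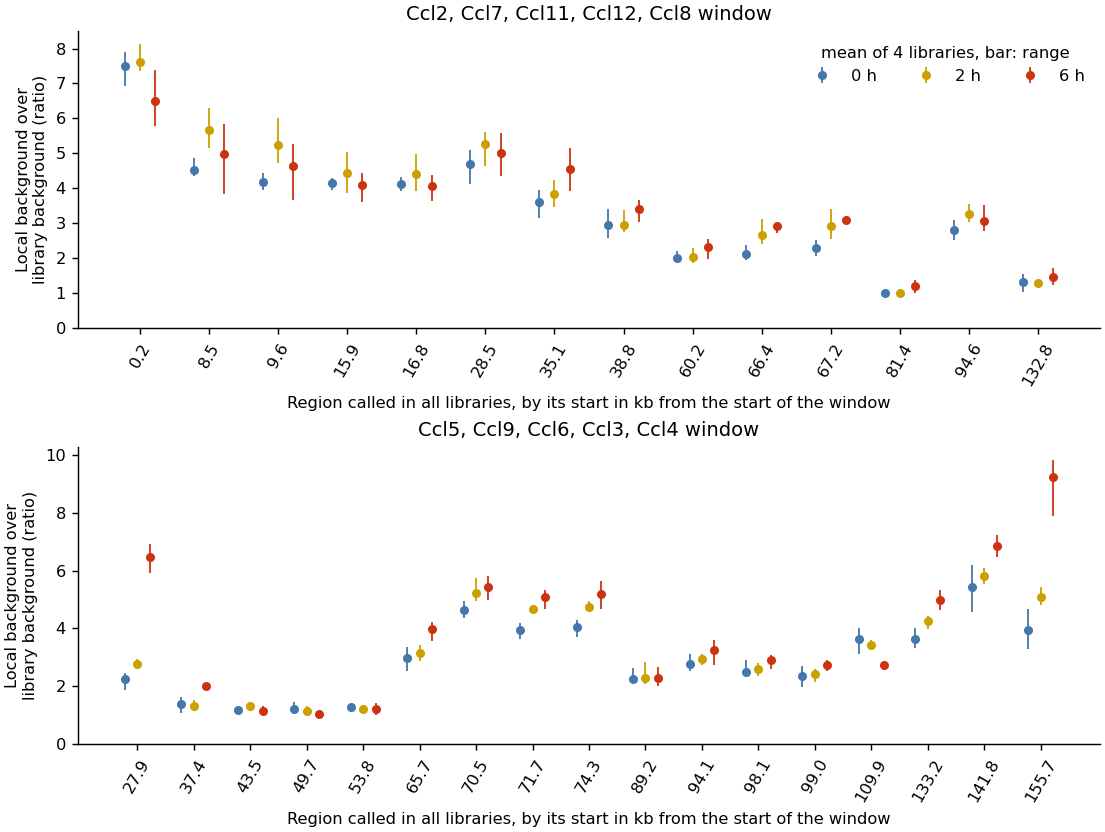
Local background over library background (a ratio, vertical axis) at each member called in all 12 libraries, by the region's start in kb from the start of the window, with the mean of 4 libraries (point) and their range (bar) at 0 h (blue), 2 h (yellow) and 6 h (red). In the second window the 6 h points at 27.9 kb and 155.7 kb, at 6.46 and 9.23, stand far above those at 0 h, at 2.24 and 3.94, while at 109.9 kb the 6 h point is the lowest of the 3.

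The region with the largest ratio of local background at 6 h to that at 0 h was chr11:83347863-83348780, at 27.9 kb of the second window, in the midst of the late regions described above. Its local background was 2.35 and 1.87 times the library background in WT and 2.26 and 2.47 times in KO at 0 h. At 2 h it was 2.65 and 2.95 in WT and 2.73 and 2.79 in KO, and at 6 h 5.92 and 6.5 in WT and 6.52 and 6.91 in KO. The 3 times formed separate ranges in both genotypes. The summit was 21.0 ± 0.478 times the library background at 0 h, 29.0 ± 2.98 times at 2 h and 30.8 ± 2.93 times at 6 h (SD, n = 4), so it was higher at both later times. Its fold was 7.8 and 9.15 in WT and 7.8 and 6.86 in KO at 0 h, 9.62 and 9.95 in WT and 8.59 and 9.16 in KO at 2 h, and 4.29 and 4.81 in WT and 4.82 and 4.25 in KO at 6 h. The fold was thus lowest at the time when the summit's mean was highest.

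A like pattern was measured at chr11:83475677-83476447, at 155.7 kb of the second window and next to the gained region at 158.7 kb. Its local background was 3.45 and 3.28 times the library background in WT and 4.68 and 4.33 times in KO at 0 h. At 2 h it was 4.8 and 5.41 in WT and 5.23 and 4.87 in KO, and at 6 h 7.89 and 9.72 in WT and 9.83 and 9.48 in KO. All values with LPS were above all values without it. The summit was 25.2 ± 6.55 times the library background at 0 h, 32.7 ± 1.72 times at 2 h and 35.1 ± 5.58 times at 6 h, and the 0 h and 6 h libraries overlapped. The fold was 5.72 ± 0.608 at 0 h, 6.08 ± 0.151 at 2 h and 3.67 ± 0.338 at 6 h (SD, n = 4).

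At chr11:83394280-83394808, at 74.3 kb and beside the gained region at 76.7 kb, the summit moved more than its surroundings. The summit was 14.9 and 18.8 times the library background in WT and 20.9 and 19.6 times in KO at 0 h. At 2 h it was 28 and 29.3 in WT and 29.7 and 27.9 in KO, and at 6 h 25.1 and 36.7 in WT and 27.2 and 30.4 in KO. All libraries with LPS lay above all without it. The local background was 4.03 ± 0.235, 4.72 ± 0.159 and 5.2 ± 0.438 times the library background at 0, 2 and 6 h (SD, n = 4), and the fold 4.2 ± 0.589, 5.73 ± 0.194 and 5.39 ± 0.61.

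The 3 first-window regions with a higher local background at 6 h took different courses. A pair of them lay just past the gained region at 65.5 kb. At chr11:81886396-81886968 (66.4 kb) the local background was 2.22, 1.95, 2.36 and 1.94 times the library background at 0 h and 2.88, 2.72, 3.01 and 3.01 times at 6 h, in the order WT replicates 1 and 2 and KO replicates 1 and 2. Its summit was 25.8 ± 5.49 times the library background at 0 h and 22.9 ± 1.74 times at 6 h (SD, n = 4), a difference within the spread of the 0 h libraries. Its neighbour chr11:81887247-81887745 (67.2 kb) had a local background of 2.29 ± 0.215 times at 0 h and 3.08 ± 0.0958 times at 6 h. There the summit was higher too, at 13.6, 13.2, 17.5 and 14.0 times the library background at 0 h and 20.2, 18.3, 22.1 and 23.0 times at 6 h in the same order, with no overlap.

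The last of them, chr11:81901428-81901970 at 81.4 kb, was a summit that stood out from a low neighbourhood. Its local background was equal to the library background, which is the floor of this measure, in all 4 libraries at 0 h. At 6 h it was 1.19 ± 0.154 times, from 1.004 to 1.375, so the lowest 6 h library was barely above that floor. The summit was 6.8 and 8.38 times the library background in WT and 8.47 and 8.42 times in KO at 0 h. After 2 h it was 6.26 and 11.2 in WT and 6.09 and 11.2 in KO, and at 6 h 12.7 and 15.6 in WT and 12.6 and 14.3 in KO. All libraries at 6 h lay above all earlier ones, while the 2 h libraries spread below and above those of 0 h in both genotypes. The fold followed the summit, with 5.62 ± 0.523 at 0 h and 8.96 ± 0.469 at 6 h (SD, n = 4).

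Not every member differed beyond its spread. The second-window region chr11:83363544-83364535 at 43.5 kb had a fold of 10.1 ± 1.82 at 0 h and 12.1 ± 0.801 at 6 h, and its summit was 16.4 ± 2.59 and 18.3 ± 2.58 times the library background, ranges that overlapped. Its local background was 1.16 ± 0.071 times the library background at 0 h and 1.15 ± 0.116 times at 6 h. The regions of this and the preceding paragraphs on local background and summits were singled out after their values were seen.

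The opposite course was that of chr11:83429920-83430601, the strongest call of the second window at 2 h. Its local background was 3.62 and 3.12 times the library background in WT and 3.81 and 4.01 times in KO at 0 h, 3.54 and 3.6 in WT and 3.29 and 3.27 in KO at 2 h, and 2.58 and 2.78 in WT and 2.76 and 2.85 in KO at 6 h. It was the member at which the local background of all 6 h libraries lay below all at 0 h, and its summit was lower as well.

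**Figure D4:**
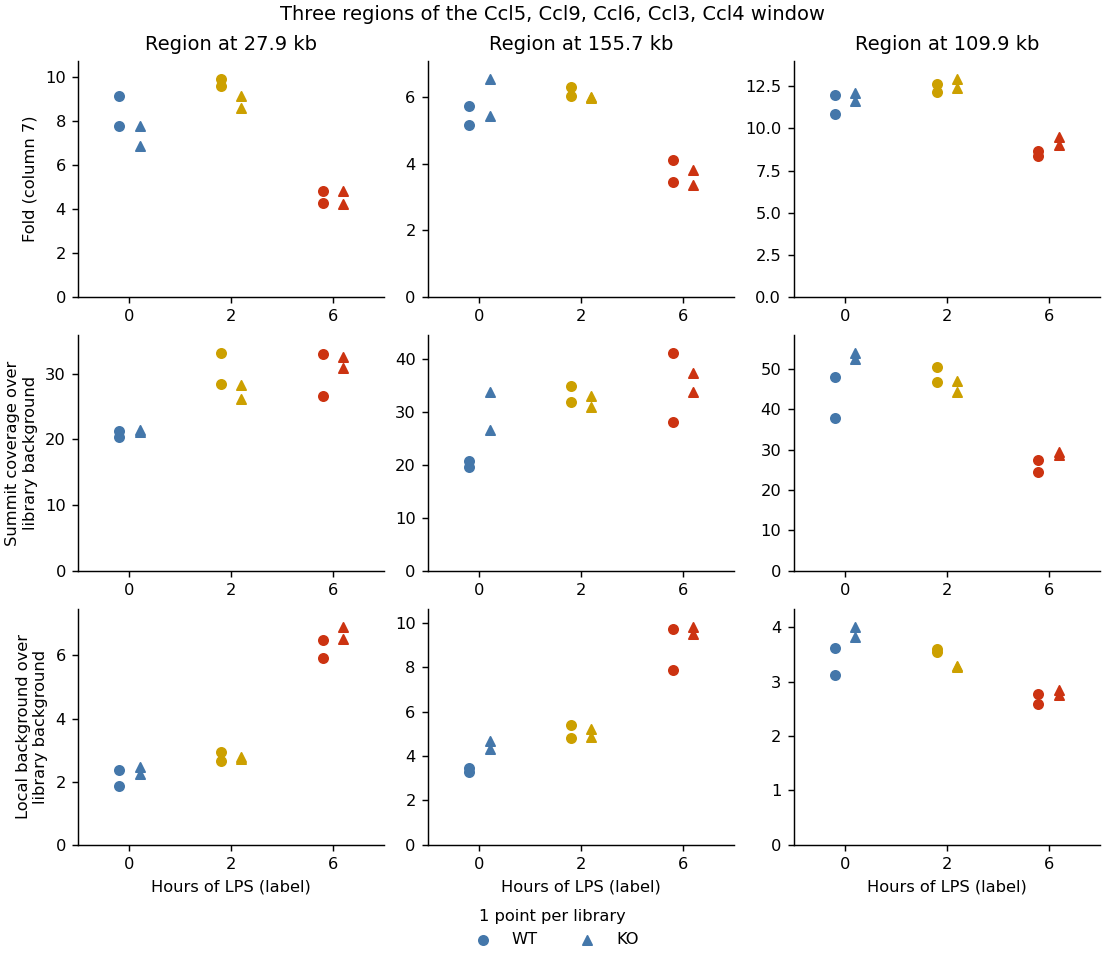
Deposited fold (top), summit coverage over library background (middle) and local background over library background (bottom) at 3 regions of the second window, by hours of LPS, with a point for each library (circles WT, triangles KO). At 27.9 kb the local background is 1.87 to 2.47 at 0 h and 5.92 to 6.91 at 6 h, while at 109.9 kb all 3 measures are lowest at 6 h.

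The design also asks whether loss of lincRNA-EPS altered these clusters, and at the level of calls the genotypes were not told apart. No member was called in all 6 WT and no KO library, where the share of all regions was 0.00868%, or in all 6 KO and no WT library (0.00174%). The exact permutation test over 12 libraries, two-sided and with genotype labels exchanged within a time, gave no member an unadjusted p under 0.05, beside 0.0642% of all regions. The smallest p was 0.333 and its Benjamini-Hochberg adjusted value 1.0. The smallest p that the design allows is 0.00926, for a region called in all 6 libraries of 1 genotype and none of the other. No member had the numbers of calls at the separate times that this takes. The 31 members called in every library could not pass whatever the genotype did. Nor could those called in a single library or in all but a single library. The rest could not either, because labels were exchanged within a time and their numbers of calls at each time did not allow it. That no member had an unadjusted p under 0.05 was therefore fixed by the calls, and the test says nothing of genotype at any member.

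Within a time, calls in 2 of 2 libraries of 1 genotype and 0 of 2 of the other were made 6 times, at 5 regions, and such a contrast has no usable test. At 0 h WT alone called 2 members (3.03% of the 66, beside 2.45% of all regions), and KO alone called 0 (0.505% of all). At 2 h WT alone called 1 member (1.52% of the 66, beside 1.34% of all), and KO alone called 2 (3.03%, beside 1.22%). At 6 h WT alone called 0 (1.2% of all) and KO alone 1 (1.52%, beside 1.91%). Each of these counts was 2 or fewer.

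Of the 5 regions, 4 were also called in the other genotype at another time. The exception, chr11:81905780-81906180 at 85.8 kb of the first window, was called in both KO libraries at 6 h and in no other library, with folds of 4.09 and 5.09 and summits of 17 and 16 reads. Also in the first window, chr11:81929602-81930020 at 109.6 kb was called at 2 h in KO alone, at 4.22 and 4.45, but at 6 h in both WT libraries (3.54 and 5.66) and KO replicate 1 (4.14). Within the second window chr11:83452452-83453130 at 132.5 kb was called at 0 h in WT alone (2.84 and 3.12) and at 2 h in KO alone (3.06 and 3.01). By 6 h all 4 libraries called it, at 3.31 and 4.72 in WT and 5.48 and 4.74 in KO. The region chr11:83472380-83472697 at 152.4 kb was called at 0 h in WT alone (4.66 and 3.08), at 2 h in WT replicate 1 (2.91) and both KO libraries (3.09 and 2.56), and at 6 h in KO replicate 1 alone (2.41). The remaining one was the gained region at 158.7 kb, called at 2 h in WT alone.

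Gains by 6 h were also counted in each genotype by itself, with 2 libraries at each time. In WT 12 members were gained (18.2%, beside 9.89% of all regions) and in KO 11 (16.7%, beside 12.5%). The genotypes shared 8 of them, which is 66.7% of those of WT and 72.7% of those of KO. Over all regions 56.0% of the gains of WT and 44.5% of those of KO were shared. The count by itself does not test a difference between the genotypes, and the shallow KO libraries at 0 h, with background coverages of 1.77 and 1.43 reads beside 2.35 and 2.51 in WT, stood beside the larger genome-wide share in KO. The part of depth in that share was not tested.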

How the data were processed

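Open chromatin was profiled with ATAC-seq for 12 libraries, and the authors deposited 1 narrowPeak list for each. The submitters' processing notes name MACS2, Picard, Bowtie2 2.1.0 and the build mm9. How duplicates and the Tn5 offset were handled, and with which settings peaks were called, is not given in the sources. The deposited lists hold a fold ratio of summit coverage over local background, with a read added to each, −log10 p-values and −log10 q-values, and a score. Summit coverage and local background were recovered from the deposited fold and p, with a whole-number coverage for 100% of 886143 peaks (tolerance 0.001). The sources give no read numbers per library, and no counting interval was computed for calls.

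The 886143 peaks were chained over the whole genome where they overlapped by at least 1 bp, and libraries were grouped by the labels. Gains, losses and genotype differences were counted as calls. Exact permutation tests of calls were run for LPS against 0 h and for genotype, with Benjamini-Hochberg adjustment over 115231 regions. For 4 libraries against 4 the stratified exact p cannot go below 0.0556, so gains at 1 time had no test. The counting of calls and the exact test were tested on simulated calls. The members and motifs were chosen with earlier results of these data known. Regions were named where they were gained or lost, where they separated the genotypes, or where they were among the 3 of highest mean percentile of −log10 q in a window. Regions named for their local background or for calls at single times were chosen after their values were seen. Alternatives were a −log10 q of at least 5, chaining at an overlap of 0.5 of the shorter peak, thinning to the shallowest background (−log10 p of at least 4.28), equal peak numbers, leaving out each library, a replicate block, and, added later, regions wholly inside the windows, of which there were 65, and each genotype alone. Python 3.11.15, numpy 2.4.6, pandas 2.3.3, scipy 1.17.1 and matplotlib 3.10.9 were used.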

Additional observations from a re-analysis of the deposited data

How the results depend on the processing

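Of the counts of calls, 8 members gained by 6 h became 5 of 63 with thinning to the shallowest background (4.5% of all regions) and 3 of 53 with equal numbers of peaks per library (3.33%). With equal numbers of peaks 2 members were lost by 6 h, where the count was 0 (1.35% of all regions, from 0.127%), and the sum of regions that separated the genotypes within a time fell to 1 from 6. The cause was not tested. The stricter −log10 q, the chaining at an overlap of 0.5 and the restriction to regions inside the windows kept these counts within 1.5 times. Counts of regions called in all libraries of a side and none of the other cannot fall when a library is left out. Leaving out each in turn gave 8 to 11 gained by 6 h, 0 to 1 gained by 2 h, 0 lost at either time, 31 to 34 called in every library, and 6 to 11 that separated the genotypes within a time. The gain by 2 h appeared, with a count of 1, when KO 2 h replicate 1 or the second WT replicate of 0 h or of 2 h was left out. The count of 11 that separated the genotypes came without KO 0 h replicate 1, KO 6 h replicate 1 or KO 6 h replicate 2. Genotype gave 0 members at an unadjusted exact p under 0.05 in each of these and 0 with the replicate block. With all libraries, the members' calls allowed none to pass, with or without the block, so those counts of 0 say nothing about genotype. Whether a member could have passed under the other settings was not examined. Deviations of same-numbered libraries correlated between -0.0165 and 0.067, with 0 of 15 pairs over 0.1, so the numbers were not treated as pairs. Background coverage, and so the depth behind a missing call, was lowest in KO at 0 h.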
